A study of Mus with 35 samples.

Results

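CXXC zinc fingers are small protein domains that bind unmethylated CpG dinucleotides, and so bring the proteins that carry them to CpG islands, the CpG-rich stretches at most promoters of active or poised genes. The proteins differ in what they do there: some remove or add methyl groups on histone H3, some oxidise methylcytosine in DNA, and some recruit Polycomb or Mediator complexes. In brain the family is known for its part in neuronal development, and several members are genes of human neurodevelopmental disorders. The 10 genes described here were Fbxl19, Kdm2a, Kdm2b, Cxxc1, Cxxc4, Cxxc5, Tet1, Tet3, Kmt2a and Kmt2b, found by symbol among the 55573 rows of the expression table. The set was chosen by Fbxl19: an earlier look at the same libraries had called its TPM higher in mutant than in wild-type brain under the control injection in all 3 cohorts. The other 9 were added for their shared domain. The mutant against wild-type values under the control injection are therefore a description with no test, and tests are given where other libraries or another question are involved.

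The study measured brain RNA from male C57BL/6J mice carrying Hnrnph2 P209L or R206W on their single X chromosome, or from wild-type (WT) littermates; Hnrnph2 encodes an RNA-binding splicing regulator. Each pup received a single injection into a lateral brain ventricle on postnatal day 2 to 4, of 30 µg of either a control antisense oligonucleotide (ASO) or an ASO directed at Hnrnph2. There were 3 cohorts of 4 groups: P209L with WT at 8 weeks, P209L with WT at 3 weeks, and R206W with WT at 3 weeks. That made 35 libraries, 3 per group; the treated P209L group at 3 weeks had 2. Every animal had been injected, so no group shows an untouched brain. The WT libraries of the 3-week cohorts were assigned to P209L or R206W by the number series in their titles. The labels call the tissue brain, the extraction text says that cortex was dissected, and the design text speaks of whole brain. Cerebellar granule cell markers, which cortex should lack, summed to between 134 and 504 TPM (transcript counts scaled for length and library size) per library. No label ties each library to its own animal, so p-values measure the spread between these samples. In bulk tissue, fewer cells of a type and less RNA per cell cannot be told apart.

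The deposited values were TPM, which keep no sequencing depth, so counting error cannot be given. Between 16235 and 16649 genes reached 1 TPM per library, and mitochondrial genes took 9.28% to 15.4% of all TPM. Hnrnph2 (chromosome X, 134601179 to 134607060, mm10) separated the ASO labels in every library. It lay between 88.2 and 116.8 TPM under the control ASO and between 6.95 and 26.7 TPM under the Hnrnph2 ASO. Its fall was 80.7% in WT, a log2 change of -2.37 over the 3 cohorts. Fold changes here are differences of log2(TPM + 1), tested with limma over the 16556 genes that averaged 1 TPM or more. Called means an adjusted p under 0.05 by the Benjamini-Hochberg method over all those genes, and SE is the standard error of a fitted difference.

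All 10 members were in the table and all 10 passed the filter, so none was lost to low values. Their levels on the TPM scale, which is per transcript length, spanned about an order of magnitude. Cxxc5, a nuclear regulator of Wnt signalling (chromosome 18, 35829379 to 35861693), was the most abundant at 77.5 ± 4.76 TPM (SD over 35 libraries), with libraries from 67.6 to 88.2. Fbxl19 (chromosome 7, 127743887 to 127769483) came next at 50.2 TPM, with libraries from 33.7 to 77.1, and Cxxc5 exceeded it in 33 of 35 libraries. Cxxc1 (chromosome 18, 74216212 to 74221493) averaged 42.4 TPM, Kdm2a (chromosome 19, 4316144 to 4398721) averaged 38.8, and Kmt2b (chromosome 7, 30568855 to 30589056) averaged 36.1. From Fbxl19 down to Kmt2b, no neighbours in this order differed by more than the SD of their difference over libraries. Kmt2b was above Kmt2a (chromosome 9, 44803355 to 44881352; 22.0 TPM) in all 35 libraries. Tet3 (chromosome 6, 83362373 to 83457208) averaged 18.2 TPM and Kdm2b (chromosome 5, 122870664 to 122989270) averaged 16.1. Kmt2a, Tet3 and Kdm2b did not differ beyond their spread as neighbours. Cxxc4 (chromosome 3, 134236144 to 134262163) averaged 13.5 TPM, and Tet1 (chromosome 10, 62804570 to 62887469) was lowest at 6.95 TPM and below Cxxc4 in all 35 libraries.

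The members differed in how far their group means ranged. The highest group mean of Fbxl19 was 2.09 times its lowest, against 1.87 for Tet1, 1.69 for Tet3, 1.46 for Kmt2a, 1.21 for Cxxc5 and 1.11 for Kdm2a. Scatter within groups was not alike either: the coefficient of variation was 4.14% for Fbxl19 and 4.15% for Cxxc5, but 12.7% for Kmt2a and 21.3% for Tet1. A change of a given size was thus far easier to see in Fbxl19 or Cxxc5 than in Tet1.

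Fbxl19 is an F-box protein whose CXXC finger binds CpG islands; in embryonic stem cells it is known to bring the kinase module of Mediator to developmental genes. In the P209L 8-week cohort, WT libraries with the control ASO held Fbxl19 at 38.1, 37.7 and 38.4 TPM, and P209L libraries held 58.4, 51.4 and 54.5. In the P209L 3-week cohort the WT control libraries were at 45.6, 50.6 and 46.7 TPM and the P209L ones at 77.1, 74.5 and 72.4. The R206W cohort had 51.8, 52.0 and 51.1 TPM in WT and 70.7, 72.6 and 70.9 in R206W. In each cohort the lowest mutant library lay above the highest WT library, for either amino acid change and at either age. The fitted difference was 0.51 log2 units at 8 weeks (SE 0.072; 42.7% higher), 0.64 for P209L at 3 weeks (SE 0.058; 55.7%) and 0.46 for R206W (SE 0.050; 37.5%). The average over cohorts was 0.54 (95% interval 0.47 to 0.60; 45.1% higher). Groups lay apart in the higher direction for 6.33%, 9.79% and 6.33% of all genes tested in the same 3 comparisons. These are the values that chose the gene, so nothing is read from them. In the same libraries, cerebellar granule markers averaged lower in mutants than in WT in all 3 cohorts. Their sums averaged 208 TPM against 258 at 8 weeks, where the groups overlapped. At 3 weeks they averaged 197 against 265 for P209L and 264 against 427 for R206W. Their part in the Fbxl19 difference was not tested.

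**Figure D1:**
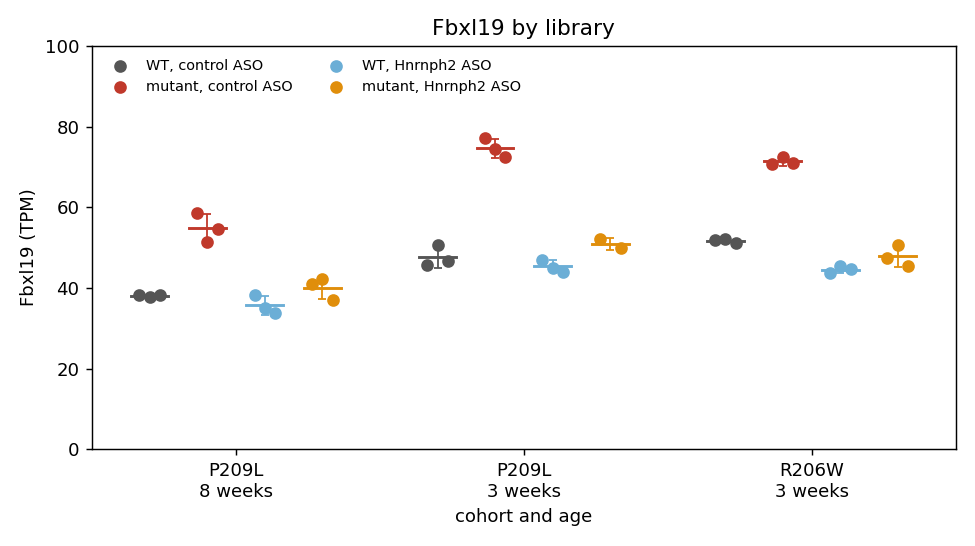
Fbxl19 in each of the 35 libraries, in TPM (vertical axis), by cohort and age (horizontal axis), with colours for genotype and ASO; points are libraries, wide lines group means and error bars SD. Mutant libraries with the control ASO run from 51.4 to 77.1 TPM and lie above the other groups of their cohort.

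Whether the mutants also differed from WT after the Hnrnph2 ASO could be asked of libraries that had no part in the choice. At 8 weeks, treated WT libraries held Fbxl19 at 38.2, 35.1 and 33.7 TPM and treated P209L libraries at 41.0, 42.2 and 37.0. At 3 weeks, treated WT libraries were at 46.9, 45.0 and 44.0 TPM and the 2 treated P209L libraries at 52.0 and 49.9. In the R206W cohort, treated WT libraries were at 43.6, 45.3 and 44.6 TPM and treated R206W libraries at 47.3, 50.7 and 45.4. Every group mean was higher in mutants, but the groups overlapped at 8 weeks and lay apart narrowly in the 3-week cohorts, where 7.06% (P209L) and 5.51% (R206W) of all genes lay apart in that direction. The average difference was 0.14 log2 units (SE 0.034, 95% interval 0.07 to 0.21; 10.4% higher), with a limma adjusted p of 0.0422. That fit pooled the spread within groups over all 35 libraries, so its SE and p also draw on the control libraries that chose the gene. With only the groups compared in the fit, the limma call ended. An exact two-sided permutation of genotype within cohorts, over 4000 regroupings, gave p = 0.00175, or 0.00325 adjusted over the 2 Fbxl19 comparisons for which it was computed. Fbxl19 was the 1 member of 10 called, beside 0.67% of all genes.

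The cohorts gave differences of 0.16, 0.16 and 0.10 (limma adjusted p 0.998, 0.397 and 1 within the P209L 8-week, P209L 3-week and R206W cohorts). No single cohort passed the test, in which 0%, 0% and 0.00606% of all genes were called. The difference between cohorts was itself not called: it was 0.00 log2 units between the P209L cohorts and 0.07 between P209L and R206W at 3 weeks (adjusted p 1 for both). The average call ended when any of 12 of the 17 libraries was left out, with a value from 0.13 to 0.16 and an adjusted p from 0.0184 to 0.133. It held without WT replicate 1 or P209L replicate 3 at 8 weeks, WT replicate 1 or 3 of the P209L 3-week cohort, or R206W replicate 3. It also ended under median-of-ratios scaling (0.15, adjusted p 0.0836) and with a covariate of cerebellar granule and Purkinje cell markers (0.13, adjusted p 0.141). In the same comparison Hnrnph2 itself was lower in treated mutants (-0.49 log2 units, SE 0.092, adjusted p 0.0102). Cerebellar granule markers were lower too, called for 2 of 4 with a median of -0.44, and summed to 134 to 232 TPM in treated P209L against 262 to 287 in treated WT at 8 weeks. At 3 weeks those sums were 153 to 190 against 182 to 252 TPM for P209L and 263 to 339 against 367 to 419 for R206W. The part of either in the Fbxl19 value was not tested.

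In WT brain the difference in Fbxl19 between the ASOs was small. Treated WT libraries averaged 35.7 ± 2.33 TPM at 8 weeks against 38.1 ± 0.336 under the control ASO, 45.3 ± 1.47 against 47.6 ± 2.63 in the P209L 3-week cohort, and 44.5 ± 0.853 against 51.6 ± 0.480 in the R206W cohort (SD, n = 3 each). The groups overlapped in both P209L cohorts and lay apart in the R206W cohort, where 8.01% of all genes lay apart in the lower direction. The average difference was -0.12 log2 units (SE 0.032, 95% interval -0.19 to -0.06; -8.22%). The WT control libraries used here also entered the comparison that chose Fbxl19, so its values are given without a test. In the R206W cohort the control libraries carried 2 name stems in their titles and the Hnrnph2 ASO libraries 2 others, and in no cohort did the ASOs share a stem. What a stem marks is not stated, and it and the ASO cannot be told apart. None of the other 9 members was called by limma for the ASO in WT, beside 0.187% of all genes.

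In mutants the difference between treated and control libraries was larger. Fbxl19 averaged 40.1 ± 2.76 TPM in treated P209L at 8 weeks (n = 3) against 54.8 ± 3.51 under the control ASO. It averaged 50.9 ± 1.51 (n = 2) against 74.6 ± 2.37 at 3 weeks, and 47.8 (45.4 to 50.7) against 71.4 ± 1.06 in R206W (n = 3). The groups lay apart in all 3 cohorts, where 5.21%, 12.5% and 5.8% of all genes lay apart in the lower direction. The fitted differences were -0.44, -0.54 and -0.57 log2 units, and their average was -0.52 (SE 0.034; -30.2%). The response to the ASO in mutants minus that in WT averaged -0.39 (95% interval -0.49 to -0.30), with cohort values of -0.35, -0.47 and -0.36. All of these contain the mutant control libraries in which Fbxl19 was chosen as high, so they are given without a test.

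Set against WT with the control ASO, treated mutants held Fbxl19 at nearly the same level. The average difference was 0.02 log2 units (SE 0.034, 95% interval -0.05 to 0.09), with values of 0.07 and 0.10 in the P209L cohorts. In the R206W cohort it was -0.11, and all 3 treated R206W libraries lay below all 3 WT control libraries, as 8.17% of all genes did. The WT control libraries are again those of the choice, and the interval does not show that the groups were alike.

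The other 9 members also had 0 calls for mutant against WT under the Hnrnph2 ASO and 0 for the ASO in mutants, by limma on the average over cohorts. At an unadjusted p under 0.05 the counts were 1 and 0 of 9, beside 12.4% and 13.7% of all genes, and 0 of 9 beside 9.49% for the ASO in WT. The median over the 10 members was -0.05 log2 units for mutant against WT under the Hnrnph2 ASO, beside -0.01 over all genes tested. It was -0.01 beside 0.02 for the ASO in WT, and -0.02 beside 0.00 for the ASO in mutants. Under the control ASO, the comparison used for the choice, the other 9 ran from -0.15 to 0.12 and none was called, beside 4.28% of all genes.

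**Figure D2:**
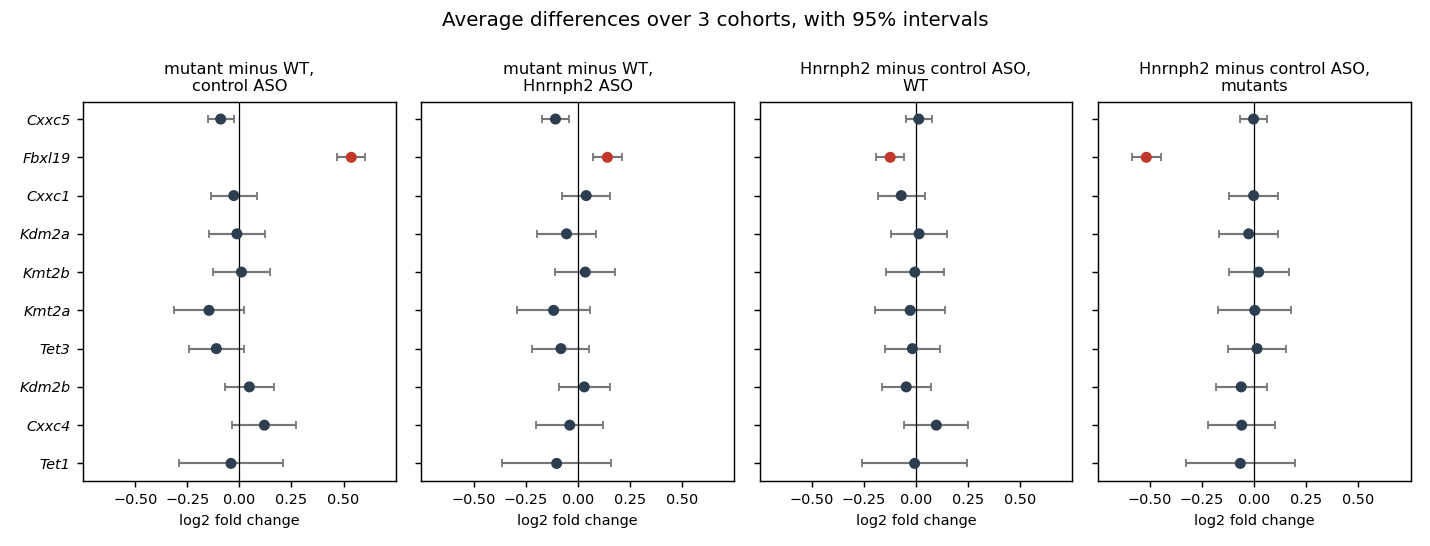
Average log2 difference over the 3 cohorts for each of the 10 members (horizontal axes, log2(TPM + 1) units; vertical axis, members by mean level), with 95% intervals, in 4 comparisons of genotype or ASO. Fbxl19 lies at 0.54 for mutant against WT under the control ASO and at -0.52 for the ASO in mutants, while the other members stay between -0.15 and 0.12 in all 4.

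Kdm2a and Kdm2b are JmjC demethylases that act on methylated lysines of histone H3; Kdm2b is also the subunit that brings the variant Polycomb complex PRC1.1 to CpG islands. Kdm2a ranged from 30.4 to 44.2 TPM over all 35 libraries, and its WT control libraries at 8 weeks (39.9, 30.4 and 41.8 TPM) already spanned most of that range. Its mutant against WT difference under the Hnrnph2 ASO was -0.05 log2 units (95% interval -0.19 to 0.09), and the ASO difference in WT was 0.01. Kdm2b ranged from 11.2 to 20.2 TPM. Its corresponding differences were 0.03 (95% interval -0.09 to 0.15) and -0.05, and its groups overlapped by genotype in every cohort under either ASO.

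The members that serve methylation of histone H3 lysine 4, a mark of active promoters, were level as well. Cxxc1 is the CpG-binding subunit of the SET1 complexes, and its mutant against WT difference under the Hnrnph2 ASO was 0.04 log2 units (95% interval -0.08 to 0.16). Kmt2b, a methyltransferase of the MLL family, had a difference of 0.04 (95% interval -0.11 to 0.18). Kmt2a, its close relative, stood at -0.12 under the Hnrnph2 ASO (95% interval -0.29 to 0.06) and at -0.15 under the control ASO. In the R206W cohort, Kmt2a was at 25.7, 25.4 and 18.8 TPM in WT control libraries and at 22.2, 18.1 and 16.8 in R206W control libraries, so the groups overlapped. The width of these intervals leaves room for a change of about the size seen for Fbxl19 under the Hnrnph2 ASO.

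Tet1 and Tet3 are dioxygenases that start the removal of DNA methylation by oxidising methylcytosine. Under the Hnrnph2 ASO the mutant against WT difference was -0.10 log2 units for Tet1 (95% interval -0.36 to 0.16) and -0.08 for Tet3 (95% interval -0.22 to 0.06). Tet3 in the P209L 3-week cohort was at 21.6, 20.9 and 25.2 TPM in treated WT and at 19.9 and 20.04 in treated P209L. Those groups lay apart in the lower direction, as they did for 16.8% of all genes in that comparison with its 2 mutant libraries. The Tet1 interval is the widest of the members and excludes little.

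Cxxc4 and Cxxc5 lack a catalytic domain and are known to bind Dishevelled and dampen Wnt signalling. Cxxc4 was 0.12 log2 units higher in mutants under the control ASO and at -0.04 under the Hnrnph2 ASO (95% interval -0.20 to 0.12). Cxxc5 was the one other member whose interval under the Hnrnph2 ASO excluded 0, at -0.11 (SE 0.032, 95% interval -0.17 to -0.04). It did not pass the test over all genes (limma adjusted p 0.124). At 3 weeks, Cxxc5 was at 78.9, 80.3 and 83.5 TPM in treated WT and at 71.6 and 67.6 in treated P209L. Those groups lay apart, as they did in the lower direction for 16.8% of all genes. It was at 79.5, 85.5 and 84.3 against 78.0, 75.2 and 82.4 TPM at 8 weeks, and at 77.9, 76.2 and 75.9 against 74.9, 73.0 and 78.2 in the R206W cohort, where the groups overlapped. Under the control ASO the P209L 3-week groups lay narrowly apart in the same direction, at 86.3, 78.0 and 88.2 TPM in WT and 70.2, 77.8 and 74.2 in P209L. The R206W groups did so too, also narrowly, at 78.67, 74.54 and 75.82 against 74.45, 68.08 and 74.18 TPM. Groups lay apart in the lower direction for 11.1% and 5.39% of all genes in those control comparisons. Of the CXXC genes outside the 10, the maintenance methyltransferase gene Dnmt1 stood at -0.04 and Mbd1, a methyl-CpG binding protein, at 0.02 under the Hnrnph2 ASO, neither called.

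**Figure D3:**
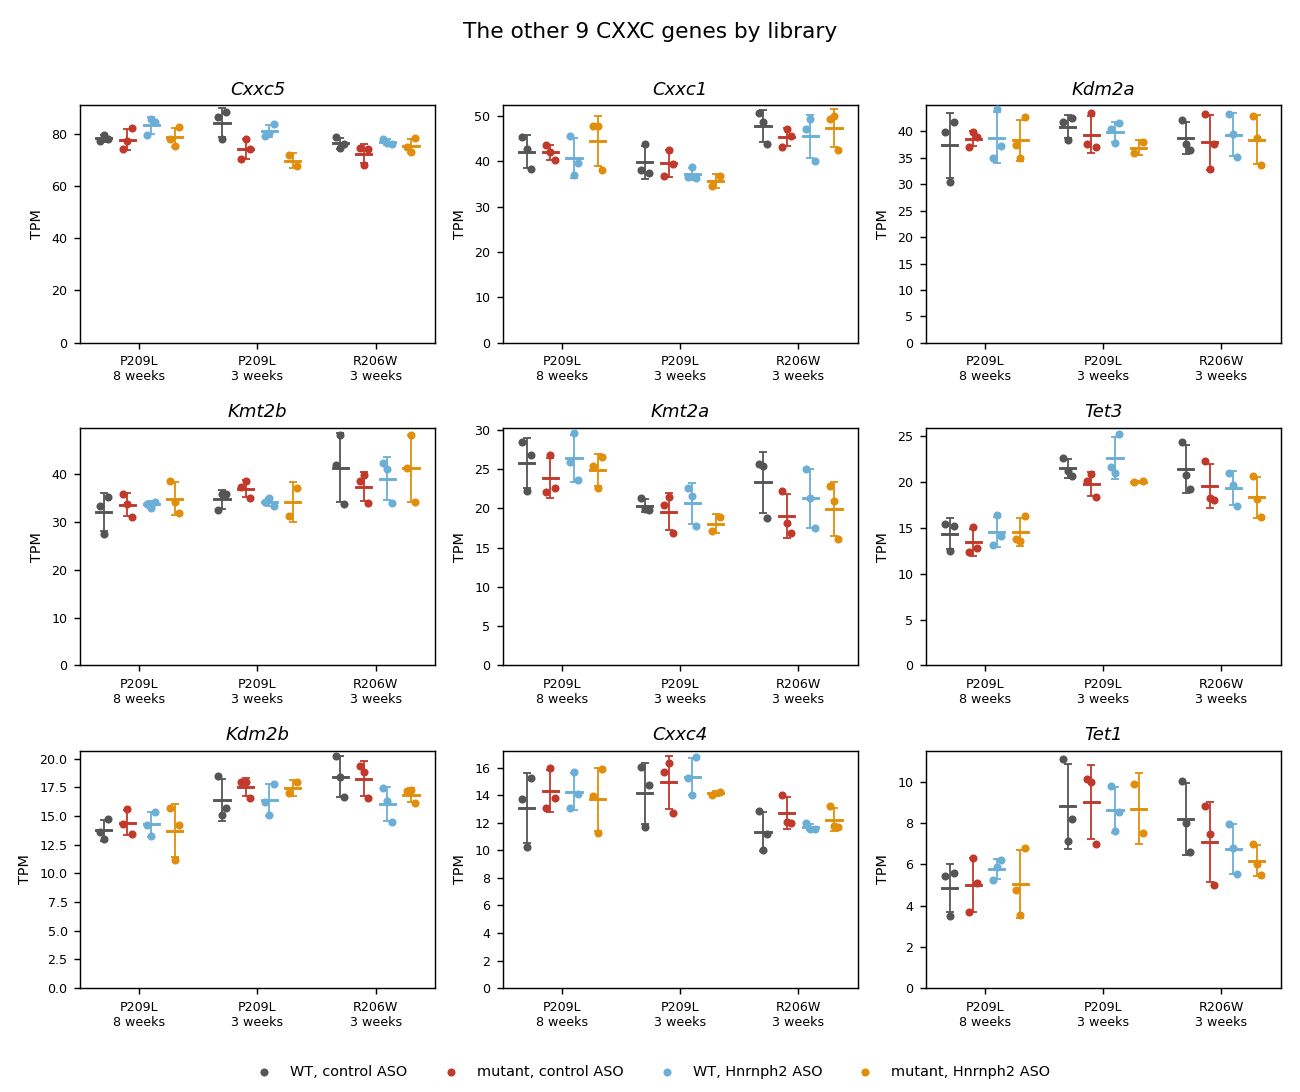
TPM (vertical axes) of the other 9 members in each of the 35 libraries, by cohort and age (horizontal axes), with colours for genotype and ASO; points are libraries, wide lines group means and error bars SD. Genotype and ASO groups overlap in most panels, and Tet1 and Tet3 are lower in the 8-week cohort than in the 3-week P209L cohort.

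Age gave the widest differences among the members. The P209L cohorts were compared, 12 libraries at 8 weeks with 11 at 3 weeks over the same 4 kinds of group. With 1 cohort per age, age and cohort cannot be told apart. Of the 10 members, 4 fell and 2 rose from 3 to 8 weeks, 6 called in all; over all genes 42.1% were called, 26.6% lower and 15.5% higher. The share called among members is not far from that of all genes, and their median of -0.07 log2 units stood beside -0.03, so the members are described singly.

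Both TET genes among the 10 members fell. Tet2, a TET gene outside the 10, had group means of 15.3 to 17.0 TPM at 8 weeks and 15.1 to 18.4 TPM in the P209L 3-week cohort. Tet1 was between 3.50 and 6.80 TPM at 8 weeks (median 5.36) and between 6.96 and 11.1 at 3 weeks (median 8.52), so no 8-week library reached a 3-week one. The difference was -0.68 log2 units (SE 0.109; -37.5%; limma adjusted p 1.65e-05). Tet3 was between 12.3 and 16.4 TPM at 8 weeks (median 13.9) and between 18.3 and 25.2 at 3 weeks (median 20.8), again with no overlap, as for 3.55% of all genes in the lower direction. Its difference was -0.53 (SE 0.057; -30.8%; adjusted p 3.18e-08). The R206W cohort, also taken at 3 weeks, held Tet3 at 16.1 to 24.3 TPM and Tet1 at 5.0 to 10.01 TPM (median 6.885). Both ranges overlapped those of the 8-week cohort, that of Tet3 by its lowest end.

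Fbxl19 fell by 0.36 on the log2 scale (SE 0.029; 22.0% lower; limma adjusted p 1.58e-10). Within WT control libraries, 37.7 to 38.4 TPM at 8 weeks stood against 45.6 to 50.6 at 3 weeks (-0.31, adjusted p 0.000378). Within P209L control libraries, 51.4 to 58.4 stood against 72.4 to 77.1 (-0.44, adjusted p 5.9e-06). The groups lay apart in either genotype, as they did in the lower direction for 16.5% of all genes in WT and 20.2% in P209L. The control libraries here also entered the choice of Fbxl19, which was by genotype within each cohort and not by age. Its age p-values therefore do not come from libraries apart from the choice. Kdm2b fell by 0.26 (SE 0.051; 16.3% lower; adjusted p 0.000227), from a median of 17.0 TPM to 14.2, with overlapping ranges.

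The members that rose were Kmt2a and Cxxc1. Both are tied to lysine 4 methylation, but Kmt2b, which is too, was not called. Kmt2a was between 22.1 and 29.5 TPM at 8 weeks (median 25.7) and between 16.9 and 22.6 at 3 weeks (median 19.9), a difference of 0.34 log2 units (SE 0.073; 26.9%; limma adjusted p 0.000446). The R206W cohort, also taken at 3 weeks, held Kmt2a at 16.1 to 25.7 TPM (median 21.1), which overlapped the 8-week range. Cxxc1 rose by 0.15 (SE 0.049; 10.8%; adjusted p 0.0162), with medians of 42.3 and 37.3 TPM. In the R206W cohort at 3 weeks, however, Cxxc1 ran from 40.0 to 50.6 TPM with a median of 47.0, above the 8-week median. Kdm2a (-0.04), Cxxc4 (-0.08), Cxxc5 (0.04) and Kmt2b (-0.06) were not called.

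**Figure D4:**
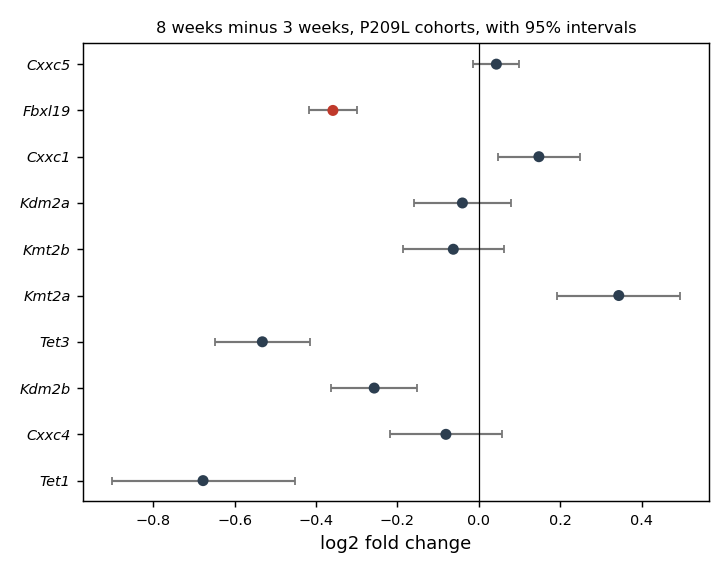
Log2 difference between the P209L cohorts, 8 weeks minus 3 weeks (horizontal axis, log2(TPM + 1) units), for each of the 10 members (vertical axis, by mean level), with 95% intervals. Tet1 lies lowest at -0.68 and Kmt2a highest at 0.34, and the intervals of Kdm2a, Cxxc4, Cxxc5 and Kmt2b cross 0.

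Within the control ASO groups alone, 3 of 10 members were called in WT, namely Fbxl19, Tet1 (-0.75, limma adjusted p 0.0207) and Tet3 (-0.56, adjusted p 0.00128), beside 11.4% of all genes. In P209L 3 of 10 were called, namely Fbxl19, Tet1 (-0.74, adjusted p 0.0235) and Tet3 (-0.53, adjusted p 0.00218), beside 10.2%. The Tet1 call in WT ended without replicate 2 at 8 weeks (-0.57, adjusted p 0.153) or replicate 1 at 3 weeks (-0.59, adjusted p 0.144). In P209L it ended without replicate 1 (-0.57, adjusted p 0.140) or 3 (-0.76, adjusted p 0.0572) at 8 weeks, or replicate 1 (-0.66, adjusted p 0.117) or 2 (-0.67, adjusted p 0.101) at 3 weeks. Cell markers moved with age as well. Oligodendrocyte markers were lower at 8 weeks for 5 of 5 genes (median -1.01 log2 units), summing to 4897 to 6933 TPM against 10629 to 14277. Oligodendrocyte precursor markers were lower for 4 of 4 (median -0.51), and cortical markers for 4 of 5 (median -0.28). No marker was at 0 in any library, and their part in the age differences was not tested.

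The complexes in which the members work were followed through lists of their known partners. Of 118 partner genes tested, limma called 0 between mutant and WT under the Hnrnph2 ASO (8 at an unadjusted p under 0.05) and 0 for the ASO in WT (4 at that level). Over all genes these were 0.67% (12.4%) and 0.187% (9.49%). These lists held the kinase module of Mediator (7 genes tested), PRC1.1 (8), other Polycomb genes (22), SET1 (9) and MLL (11) complexes, and the SCF ubiquitin ligase core (4). They also held demethylases (6 for lysine 4, 7 for lysines 9 and 36), writers of lysine 36 methylation (6), DNA methylation genes (14), Wnt genes around Dishevelled (10) and other Fbxl genes (14). Under the control ASO, the comparison behind the choice, 4 of 118 partner genes were called between mutant and WT, beside 4.28% of all genes. The partners thus do not stand above that background. Ash1l, a lysine 36 methyltransferase, was higher by 0.49 log2 units (SE 0.092). Med13l, a subunit of the Mediator kinase module that Fbxl19 is known to recruit, was higher by 0.45 (SE 0.080). It averaged 31.5 TPM in P209L against 20.7 in WT controls at 8 weeks, and 33.4 against 21.8 at 3 weeks. In the R206W cohort the means were 21.8 against 19.7 TPM, and the groups overlapped. Fbxl4 (0.19) and the Polycomb gene Cbx6 (0.12) were the others.

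Ash1l averaged 26.4 ± 6.55 TPM in WT controls, 40.9 ± 5.16 in P209L controls and 26.4 ± 5.26 in treated P209L at 8 weeks. At 3 weeks the corresponding means were 26.2 ± 3.19, 40.3 ± 4.99 and 27.0 ± 2.81 TPM, and in the R206W cohort 22.1 ± 3.11, 26.4 ± 2.71 and 21.9 TPM. The ASO in mutants went with lower Ash1l (-0.48), Med13l (-0.42) and the Polycomb gene Phc3 (-0.44). These 3 of 118 called do not stand above the 2.5% of all genes called. This comparison shares the mutant control libraries with the one before it. The other 6 genes of the Mediator kinase list were not called in either.

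With age, 34 of 118 partners fell and 10 rose. Among DNA methylation genes 2 of 14 fell and 1 rose: Dnmt3a, a de novo methyltransferase, fell by 0.92 on the log2 scale (limma adjusted p 2.8e-14), from a median of 52.4 TPM at 3 weeks to 26.9 at 8 weeks. The glycosylase gene Tdg, which removes oxidised methylcytosine, fell by 0.62, and Mbd3 rose by 0.23. Of the 8 PRC1.1 genes, Ring1 rose by 0.25 while Rybp and Rnf2 fell by 0.18 and 0.21. Among the 22 other Polycomb genes 4 rose and 8 fell, with Cbx7 up by 0.79 (median 24.8 to 41.8 TPM) and Cbx6 down (-0.60). Lysine 4 demethylases fell for 3 of 6 genes (Kdm1a -0.34, Kdm1b -0.25, Kdm5b -0.26) and rose for 0. Writers of lysine 36 methylation fell for 3 of 6 (Nsd1 -0.34, Setd2 -0.12, Nsd2 -0.19). In the SET1 list Rbbp5 rose by 0.16, and Wdr5 (-0.24), Wdr82 (-0.16) and Hcfc1 (-0.15) fell. Around Dishevelled 4 of 10 fell, led by Apc (-1.08) and Dvl3 (-0.39). Apc had a median of 60.6 TPM at 8 weeks and 138 at 3 weeks in P209L cohorts, but 66.2 to 106 in the 3-week R206W cohort. As 42.1% of all genes were called with age, the 44 of 118 partners called do not stand above the background.

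Genes near Fbxl19 on the chromosome were examined as well. By RefSeq positions on GRCm38.p6, 7 other genes that lie within 100 kb of Fbxl19 and passed the filter are described. The nearest, the calcium channel gene Orai3 at 0.332 kb, had a mutant against WT difference of 0.04 log2 units under the control ASO. Setd1a, a catalytic subunit of a SET1 complex lying 7.91 kb away, had 0.01. Bcl7c (0.01), Ctf1 (0.11), Stx4a (-0.08) and Zfp668 (-0.02) were not called either. Hsd3b7, a bile acid synthesis enzyme gene 31.1 kb away, was called in the opposite direction to Fbxl19 (-0.24, SE 0.051). It averaged 10.8 ± 0.831 TPM in WT and 7.71 ± 0.653 in P209L controls at 3 weeks, and 14.1 ± 1.48 and 10.9 ± 0.746 in the R206W cohort. At 8 weeks the means were 10.7 ± 1.10 and 11.2 ± 0.716 TPM (SD, n = 3 each). None of these 7 was called by limma for the ASO in WT, the ASO in mutants, or mutant against WT under the Hnrnph2 ASO.

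**Figure D5:**
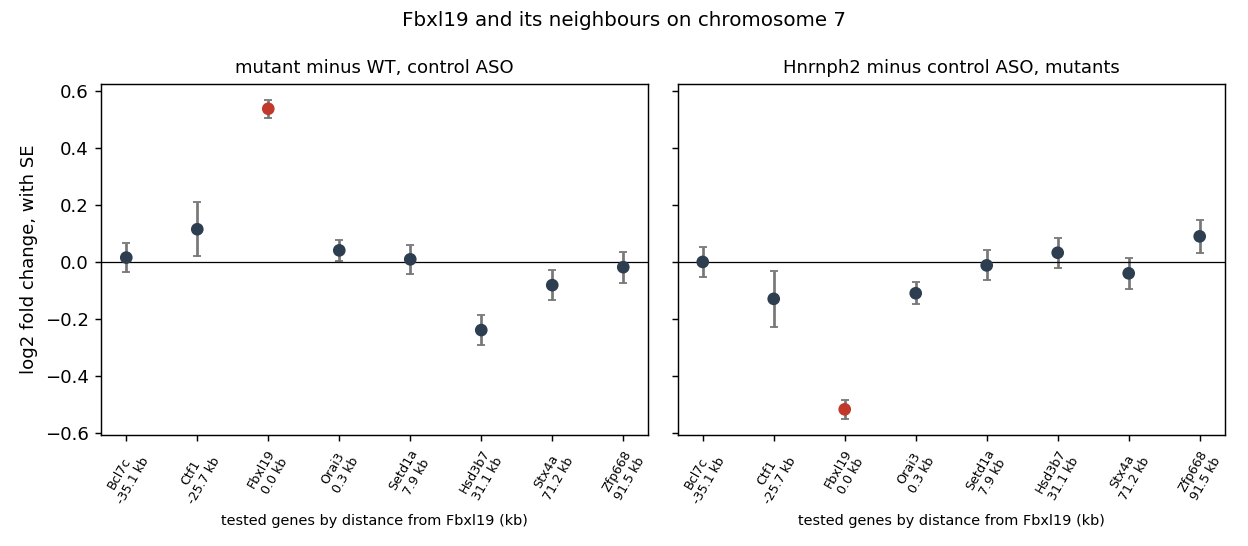
Log2 difference between mutant and WT under the control ASO (left) and between treated and control mutants (right), on the vertical axes with error bars of 1 SE, for Fbxl19 and 7 tested genes within 100 kb of it, ordered along the horizontal axes with their distance in kb. Fbxl19 stands at 0.54 and -0.52, and its neighbours stay between -0.24 and 0.11 for the genotype difference.

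The genes whose levels followed Fbxl19 most closely were ranked by Pearson correlation over the 35 libraries, after centring each gene on its cohort mean. They were Atf6b (r = 0.941), a transcription factor of the endoplasmic reticulum stress response, Ppp1r9b (0.933), Atp6v0e2 (0.930), Ddn (0.925) and Shank1 (0.923), the scaffold of excitatory synapses. Atf6b ran from 37.2 to 39.3 TPM in WT controls, 49.1 to 53.7 in P209L controls and 39.4 to 43.4 in treated P209L at 8 weeks. The libraries share the mutant control groups in which Fbxl19 was chosen as high, and the correlations are a description across these libraries. Among members the closest were Kdm2b (0.27) and Cxxc1 (0.16), and the farthest was Cxxc5 (-0.54).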

How the data were processed

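Total RNA was made into stranded libraries, per the labels' protocols. The authors deposited gene-level TPM values with 2 decimals; per the submitters' processing notes, the tools were RSEM, STAR 2.7.1a, Trim Galore and GATK 4.0.4.0, with build mm10. The annotation and strand setting are not given in the sources used here. TPM fix each library's total, so a few abundant genes can shift all others.

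Genes averaging 1 TPM or more were kept, log2(TPM + 1) was taken, and limma 3.58.1 (R 4.3.3) fitted 12 group means over all 35 libraries for averages over cohorts and for age, and 4 for a single cohort (moderated variance with trend, two-sided, Benjamini-Hochberg over all genes). The pseudocount understates changes of low genes. For Fbxl19, labels were also permuted exactly within cohorts (scipy 1.17.1). The fit was tested on simulated data.

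The members and gene lists were chosen with earlier results of these data known. Named genes were the members, up to 4 called genes per partner list, tested neighbours within 100 kb and the 5 closest in pattern. Replicate numbers paired the samples by the criterion of a correlation over 0.1 in every pair only for treated mutants against WT controls at 8 weeks (lowest 0.123) and in the R206W cohort (lowest 0.104). Gene positions are RefSeq's for GRCm38.p6. The result for 1 tested neighbour is not reported here. Alternatives covered scaling, pseudocount, filters, variance model, a cerebellar covariate and left-out libraries.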

Additional observations from a re-analysis of the deposited data

Results flagged for a closer look

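The difference between mutants and WT in the change of Fbxl19 with the Hnrnph2 ASO averaged -0.39 log2 units, where the change was -0.52 in mutants and -0.12 in WT. It is listed because limma called this difference. The value contains the control libraries in which Fbxl19 had been chosen as high in mutants. That call is therefore not read as a test, and the value is a description.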

How the results depend on the processing

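For mutant against WT under the Hnrnph2 ASO, Fbxl19 kept its direction but lost its call, leaving 0 members called, under median-of-ratios scaling (0.15, adjusted p 0.0836), without mitochondrial and the 50 most abundant genes (0.14, 0.0724), without a variance trend (0.14, 0.0533), with robust variances (0.14, 0.0521), with only the groups compared (0.14, 0.175) and with the cerebellar covariate (0.13, 0.141). Leaving out 1 library gave 0.13 to 0.16 and 0 or 1 members. The replicate block gave 0.14 (adjusted p 0.0438). Under the control ASO, Cxxc5 was also called, making 2 members, without mitochondrial and abundant genes (-0.10, adjusted p 0.0427) and without WT control replicate 2 of the P209L 3-week cohort (-0.11, 0.0465), so left-out libraries gave 1 to 2. At 8 weeks alone the 1 call became 0 under median-of-ratios scaling and with only the groups compared, and left-out libraries gave 0 to 1. For R206W it became 0 with only the groups compared and with the cerebellar covariate. For the ASO in mutants, the 0 calls at 8 weeks became 1 with a minimum mean of 5 TPM or the cerebellar covariate, and the 1 call at 3 weeks in P209L became 0 with only the groups compared or that covariate, with 0 to 1 over left-out libraries. Among members, the reported calls under the control ASO and for the ASO in mutants were Fbxl19 alone. Its mutant control libraries entered its choice, so these calls are a description with no test. For treated mutants against WT controls, 0 members became 1 (Cxxc5, -0.11, adjusted p 0.0302) without mitochondrial and abundant genes, left-out libraries gave 0 to 1, and the Fbxl19 average turned from 0.02 to -0.0010 with the cerebellar covariate. The replicate block there gave 0.07, 0.08 and -0.11 for Fbxl19, with 0 members called, and moved the R206W count over all genes from 3 to 236. The 6 age calls were kept in every alternative run. Counts over all genes ranged from 410 to 1164 (708 as reported) for genotype under the control ASO, 21 to 303 (111) under the Hnrnph2 ASO, 20 to 53 (31) for the ASO in WT, from 0.505 to 1.36 times the reported 414 in mutants and 217 to 1198 (799) for treated mutants against WT controls, 998 to 2963 (1891) for age in WT controls and 905 to 1777 (1696) in P209L controls. The causes were not tested.

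TPM hold no depth, so low members such as Tet1 carry a counting error that is not known, and 2 or 3 libraries per group limit what any single cohort can show. Overlapping or antisense transcripts cannot be separated without the strand setting.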

Other observations

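In the R206W cohort, the libraries numbered replicate 3 were the lowest of their group in all 4 groups for 5 members (Kdm2b, Tet1, Tet3, Kmt2a and Kmt2b). Over all genes tested this held for 14.2%, against 3.11% and 3.16% for replicates 1 and 2. Kmt2a in these 4 libraries was at 18.8, 16.8, 17.5 and 16.1 TPM, and the other 8 libraries of the cohort ran from 18.1 to 25.7 TPM.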
